A study of Mus musculus with 12 samples.

Results

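The 10 genes examined here carry glucose into the cell and break it down to lactate: the glucose transporters Slc2a1 and Slc2a4, hexokinase Hk2, phosphofructokinase Pfkp, aldolase Aldoa, phosphoglycerate kinase Pgk1, enolase Eno1, pyruvate kinase Pkm, and the lactate dehydrogenase subunits Ldha and Ldhb. Every array probe annotated with one of these symbols, or with Pkm2, the older symbol of Pkm, was taken on its own. This gave 13 of the 45281 probes, for 8 of the 10 genes, on an array that named 19057 genes; no probe carried the symbol Hk2 or Eno1, so both were not analysed here. RNA had been measured on 12 bead arrays, 3 for each of 4 groups of male FVB mice: wild-type liver and Cav1 knockout liver at 12 weeks of age, and wild-type and Cav1 knockout gonadal adipose tissue (GWAT) at 8 weeks. Cav1 encodes caveolin-1, which shapes caveolae, small flask-like pits of the cell surface. Per the labels, tissue was taken in the light phase, at 3 PM, under ketamine and xylazine. The labels do not say whether replicates came from separate animals, so each p-value reflects only how these samples varied, possibly for technical reasons, and 3 arrays per group limit the precision.

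Glucose enters cells through facilitative transporters. GLUT1, encoded by Slc2a1, serves basal uptake in many cell types, whereas GLUT4, encoded by Slc2a4, is held inside adipocytes and muscle fibres and moves to the cell surface under insulin, in adipocytes to a membrane rich in caveolae. Hexokinase traps the glucose as a phosphate, phosphofructokinase commits it to glycolysis, and aldolase, phosphoglycerate kinase, enolase and pyruvate kinase carry it to pyruvate, which lactate dehydrogenase interconverts with lactate. Adipocytes also draw on this route for the glycerol backbone and acyl chains of stored triglyceride, and the liver runs most of its steps in either direction.

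The promoters of 5 of these genes are shown, since the results below turn on their transcripts in GWAT. Each line gives the 250 bases before a start of transcription, 5′ to 3′ on the gene's strand, from RefSeq on GRCm38.p6. Capitals mark the letters ACGTG on either strand, a form of the core of the element bound by hypoxia-inducible factors, which overlaps the E-box CACGTG. The other form, GCGTG, was neither marked nor counted. Where a gene had several annotated starts, the window with the most copies is printed.
Aldoa (chr7:126799255-126799504, minus strand): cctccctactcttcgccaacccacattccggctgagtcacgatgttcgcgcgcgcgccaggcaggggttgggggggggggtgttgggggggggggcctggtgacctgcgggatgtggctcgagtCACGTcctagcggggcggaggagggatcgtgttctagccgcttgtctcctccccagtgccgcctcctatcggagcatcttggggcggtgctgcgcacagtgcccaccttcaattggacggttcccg
Pkm (chr9:59656977-59657226, plus strand): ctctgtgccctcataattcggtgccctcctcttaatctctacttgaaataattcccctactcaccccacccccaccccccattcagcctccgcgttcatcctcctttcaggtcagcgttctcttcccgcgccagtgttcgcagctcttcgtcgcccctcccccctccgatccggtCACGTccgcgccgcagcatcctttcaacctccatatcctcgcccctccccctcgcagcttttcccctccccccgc
Pfkp (chr13:6648772-6649021, minus strand): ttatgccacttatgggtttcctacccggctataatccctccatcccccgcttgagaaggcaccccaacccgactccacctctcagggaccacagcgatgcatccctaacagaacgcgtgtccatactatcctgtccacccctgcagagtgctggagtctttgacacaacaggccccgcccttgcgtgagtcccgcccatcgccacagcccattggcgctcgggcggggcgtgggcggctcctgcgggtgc
Pgk1 (chrX:106186850-106187099, plus strand): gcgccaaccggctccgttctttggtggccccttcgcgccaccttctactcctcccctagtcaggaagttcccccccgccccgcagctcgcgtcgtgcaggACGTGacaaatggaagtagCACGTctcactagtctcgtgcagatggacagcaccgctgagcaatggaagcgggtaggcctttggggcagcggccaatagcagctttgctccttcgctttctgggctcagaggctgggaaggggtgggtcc
Ldha (chr7:46845554-46845803, plus strand): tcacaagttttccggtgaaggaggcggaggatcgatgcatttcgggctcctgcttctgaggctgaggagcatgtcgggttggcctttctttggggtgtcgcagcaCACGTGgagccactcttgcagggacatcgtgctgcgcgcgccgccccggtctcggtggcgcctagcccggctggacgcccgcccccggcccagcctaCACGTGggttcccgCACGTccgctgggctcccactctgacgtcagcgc
Aldoa held 1 copy in the window of its second of 3 annotated starts, 126 bases before it, and Pkm 1 copy, 75 bases before the second of 2 starts. Pgk1, a textbook target of these factors, held 2 copies, 150 and 131 bases before its start. Ldha held 5 matches counted over both strands, 4 of them in 2 copies of CACGTG. Pfkp held no ACGTG, though the uncounted form GCGTG occurs in its window. It had 4 copies of GGGCGG, the GC box, counted on both strands. Windows were found for 9 of the 10 genes, the exception being Slc2a4. Of their 15 windows, some of which overlap, 7 held ACGTG and 10 held GGGCGG, beside 16.6% and 32.7% of all 32851 windows of the same length, and CACGTG was in 6.02% of those. A match describes the letters in the window and is not evidence of a bound site.

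The knocked-out gene was read first. In liver the Cav1 probe gave 172, 167 and 210.4 on the wild-type arrays and 110.2, 117 and 113 on the knockout arrays, where it was below background on 3 of 3. In GWAT it gave 112, 108 and 111 on the arrays labelled wild type and 14598, 15114 and 17476 on those labelled knockout, against the labels on all 6 arrays. GWAT groups are therefore called by their labels throughout, every GWAT direction is that of the labels, and each would turn if the labels were exchanged. Values are intensities as deposited, normalized by the authors within each tissue separately. A probe counted as above background where it exceeded the 95th percentile of 1525 odorant, vomeronasal and trace amine receptor probes on that array, which lay between 120.8 and 123.6 in liver and between 70.4 and 73.8 in GWAT. Where a tissue had a probe above background on 3 or more of its 6 arrays, the probe was tested with limma on background-corrected log2 intensities. All log2 differences (labelled knockout minus wild type) are on that scale, and a probe was called at a Benjamini-Hochberg adjusted p under 0.05 over all probes tested.

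In GWAT the glycolytic enzymes and the transporters did not move one way. Pkm, Aldoa and 1 probe of Pfkp were lower on the arrays labelled knockout, while Slc2a4 and 1 probe of Pgk1 were higher. The remaining 5 tested probes, of Slc2a1, Ldha, Ldhb, Pfkp and Pgk1, were not called. Of the 10 tested probes, 2 were higher and 3 lower, beside 11.2% and 11.4% of all 21300 probes tested in this tissue (22.5% in either direction). The groups did not overlap for 6 of the 10, beside 39.3% of all tested probes. The median log2 difference was -0.06 over the 10 probes and 0.01 over all probes. These are bulk tissue RNAs, in which fewer cells of a type and less RNA per cell cannot be told apart.

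Slc2a4, the insulin-responsive transporter gene on chromosome 11, read 842, 1017 and 870.4 on the GWAT arrays labelled wild type and 1237, 1274 and 1282 on those labelled knockout (probe ILMN_1222333). All 3 arrays labelled knockout lay above the highest array labelled wild type. The means were 909.8 ± 93.6 and 1265 ± 23.9 (SD, n = 3), a ratio of 1.39 in raw intensity, and the fitted log2 difference was 0.50 (SE 0.09, 95% interval 0.31 to 0.69, limma adjusted p = 0.00227). Slc2a1, the basal transporter gene on chromosome 4, read 404, 360.3 and 430.5 against 396, 427 and 428 (probe ILMN_1258159). The groups overlapped, and the log2 difference was 0.08, with a 95% interval of -0.14 to 0.30 (limma adjusted p = 0.621).

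Pfkp, the platelet-type phosphofructokinase on chromosome 13, had 3 probes that differed in their result. ILMN_1237695 read 482, 483 and 495 on the GWAT arrays labelled wild type and 300.0, 325 and 336 on those labelled knockout. The groups lay far apart relative to their spread, with means of 487 ± 7.26 and 320.3 ± 18.4 (SD, n = 3), a ratio of 0.658 and a log2 difference of -0.68 (SE 0.09, limma adjusted p = 0.000452). ILMN_2673233 read 200.2, 245 and 244 against 210.2, 229.7 and 197, with overlapping groups and a log2 difference of -0.14 (95% interval -0.43 to 0.15, limma adjusted p = 0.481). The third probe, ILMN_2807702, was below background on all 12 arrays. Which transcripts each probe detects was not tested.

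Aldoa, the aldolase of most tissues, encoded on chromosome 7, was among the brightest probes in fat. On the GWAT arrays labelled wild type it read 9894, 9836 and 9319, and on those labelled knockout 6038, 6157 and 5603 (probe ILMN_2599130). Every array labelled knockout was below every array labelled wild type, with means of 5932 ± 291 and 9683 ± 317 (SD, n = 3) and a ratio of 0.613. The log2 difference was -0.71 (SE 0.06, 95% interval -0.85 to -0.57, limma adjusted p = 3.76e-05).

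Pkm, the pyruvate kinase gene on chromosome 9 whose alternative splicing gives the M1 and M2 enzymes, differed most among the tested probes. ILMN_2756041 read 4593, 4666 and 3870 on the GWAT arrays labelled wild type and 2365, 2461 and 2319 on those labelled knockout. The means were 4376 ± 440 and 2381 ± 72.5 (SD, n = 3), a ratio of 0.544, without overlap, and the log2 difference was -0.89 (SE 0.08, 95% interval -1.06 to -0.71, limma adjusted p = 3.95e-05). The other Pkm probe, ILMN_1236323, was below background on all 12 arrays. Whether the brighter probe reads 1 or both splice forms was not tested.

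Pgk1, the phosphoglycerate kinase of somatic cells, encoded on the X chromosome, went the opposite way on its bright probe. ILMN_2651886 read 813, 771 and 800.2 on the GWAT arrays labelled wild type and 989, 1089 and 1116 on those labelled knockout. All arrays labelled knockout were higher, with a ratio of means of 1.34 and a log2 difference of 0.44 (SE 0.08, 95% interval 0.27 to 0.61, limma adjusted p = 0.0027). A second probe, ILMN_2797973, lay close to background at 98.2, 99.9 and 89.7 against 114.8, 89.3 and 90.6, with a log2 difference of 0.03 (95% interval -0.39 to 0.44, limma adjusted p = 0.935). The third, ILMN_1226872, was below background on all 12 arrays. Cross-hybridisation with processed pseudogenes, which mammalian glycolytic genes such as Pgk1 have in number, was not tested.

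Ldha, the lactate dehydrogenase subunit on chromosome 7 that predominates in muscle, read 9663, 9028 and 8638 on the GWAT arrays labelled wild type and 8099, 8170.0 and 7430.0 on those labelled knockout (probe ILMN_1257965). The groups did not overlap, but they were separated by less than the range within either one. The means were 9110.0 ± 517 and 7899 ± 408 (SD, n = 3), with a log2 difference of -0.21 (SE 0.07, 95% interval -0.36 to -0.06, limma unadjusted p = 0.0118, adjusted p = 0.0518). The adjusted p ranged from 0.0402 to 0.167 over the 10 alternative settings, and was 0.0437 without the third array labelled wild type. Ldhb, the subunit that predominates in heart and is encoded on chromosome 6 like Cav1, was dim, at 73.8, 81.3 and 87.4 against 81.1, 82.1 and 80.0. Its groups overlapped, with a log2 difference of 0.01 (95% interval -0.35 to 0.37, limma adjusted p = 0.98).

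**Figure D1:**
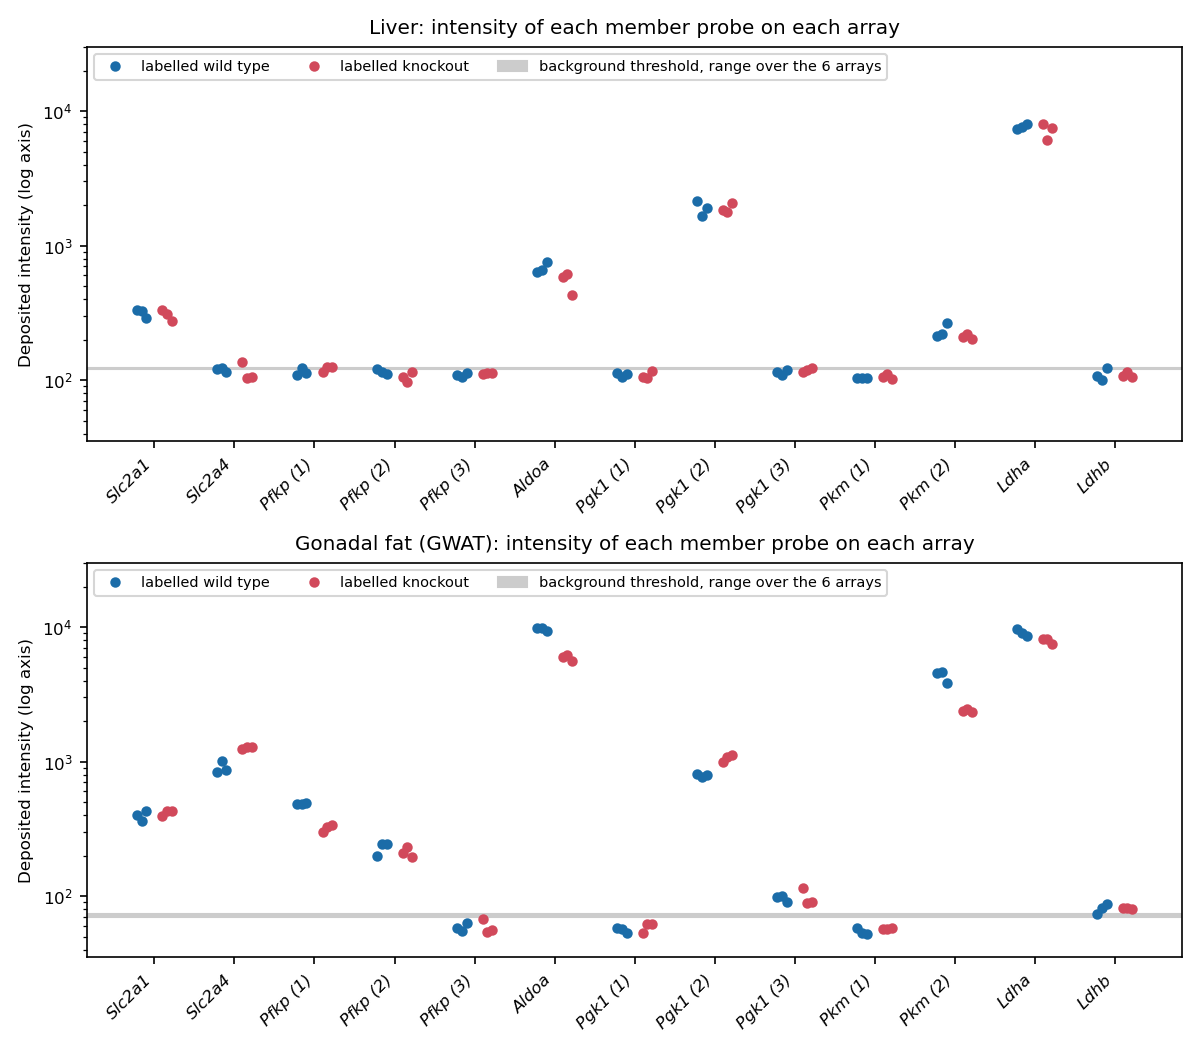
Deposited intensity (log axis) of the 13 probes on each array, liver above and GWAT below; each point is 1 array, blue labelled wild type and red labelled knockout, and the grey band spans the background thresholds of the 6 arrays. Numbers in parentheses order a gene's probes by their identifier. In GWAT the red points lie below the blue ones for Aldoa, Ldha, Pkm (2) and Pfkp (1) and above them for Slc2a4 and Pgk1 (2), while in liver only Aldoa is separated among the 5 tested probes.

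In liver no tested probe of these genes was called. The 5 probes above background, for Slc2a1, Aldoa, Pgk1, Pkm and Ldha, gave log2 differences between -0.42 and -0.01, with a median of -0.10 beside -0.02 over all probes. The count was 0 of 5, beside 0.0584% of all 15402 probes tested in liver, and 1 of the 5, Aldoa, had an unadjusted p under 0.05. It was also the only one of the 5 whose groups did not overlap, beside 15.4% of all tested probes. Aldoa read 638, 659 and 751 on the wild-type arrays and 584, 612 and 426 on the knockout arrays, and the third knockout array was the lowest of the 6. Its log2 difference was -0.42 (SE 0.18, limma unadjusted p = 0.0327, adjusted p = 0.461).

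Ldha was bright in liver, at 7408, 7627 and 8063 against 7975, 6142 and 7503, with overlapping groups and a log2 difference of -0.10 (95% interval -0.35 to 0.14, limma adjusted p = 0.799). Pgk1 read 2143, 1674 and 1896 against 1845, 1766 and 2058, a log2 difference of -0.01 (95% interval -0.28 to 0.27, limma adjusted p = 0.992). The interval of Pgk1 leaves out the 0.44 of the same probe in GWAT. Pkm read 211, 219 and 264 against 211, 218 and 201, a log2 difference of -0.23 (95% interval -0.65 to 0.20, limma adjusted p = 0.748). Slc2a1 read 334, 326 and 289 against 331, 312 and 275, a log2 difference of -0.07 (95% interval -0.45 to 0.30, limma adjusted p = 0.92). The other 8 probes were not tested in liver. Slc2a4 was above background on 1 of 3 arrays of each genotype, the brighter Pfkp probe on 0 of 3 wild-type and 2 of 3 knockout arrays, and Ldhb on none.

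**Figure D2:**
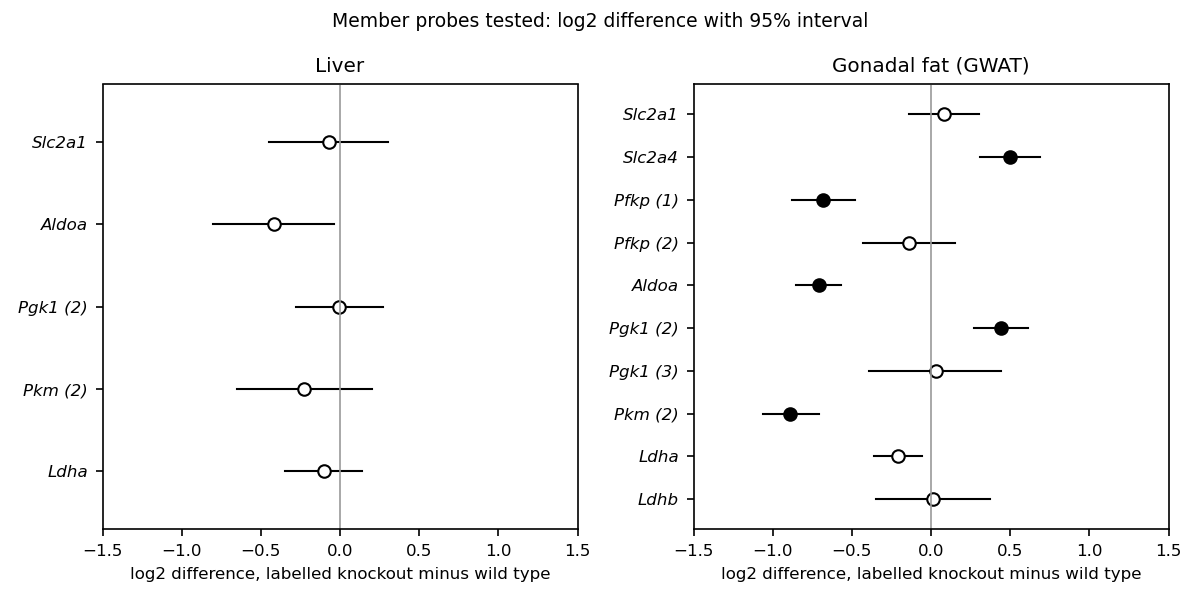
Log2 difference, labelled knockout minus wild type, of each tested probe, with its 95% interval as a line, for 5 probes in liver and 10 in GWAT; filled points were called at an adjusted p under 0.05. Pkm at -0.89, Aldoa at -0.71 and the first Pfkp probe at -0.68 lie to the left in GWAT and Slc2a4 at 0.50 and Pgk1 at 0.44 to the right, and no point is filled in liver.

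The genotype differences of the 2 tissues were compared for the 5 probes tested in both, through the interaction in a limma model of the 12 arrays, which called 6.11% of 14358 probes. Pkm was the 1 member called: its log2 difference was -0.23 in liver and -0.89 in GWAT, a difference of -0.66 (SE 0.19, 95% interval -1.06 to -0.26, limma adjusted p = 0.048). This call lay close to the threshold, with adjusted p-values of 0.0037 to 0.0987 over the 10 alternative settings, and it was lost in 8 of the 12 fits that left out 1 array. It also rests on a variance shared by the tissues. The SE of 0.19 is below the 0.20 of Pkm in the liver fit alone, beside 0.08 in GWAT. An interaction with a separate variance for each tissue was not fitted. For Pgk1 the differences were -0.01 and 0.44, and their difference of 0.45 gave a limma adjusted p = 0.0951. For Aldoa, which was lower on the arrays labelled knockout in both tissues, the difference was -0.29 (95% interval -0.69 to 0.10, limma adjusted p = 0.387). Slc2a1 differed by 0.15 (95% interval -0.26 to 0.57) and Ldha by -0.10 (95% interval -0.38 to 0.18). Ages differed with the tissues, so age and tissue cannot be told apart. With the GWAT labels exchanged, a setting chosen after seeing the data, the interaction called Pkm at 1.11 (limma adjusted p = 0.00272) and Aldoa at 1.13 (adjusted p = 0.00241). Pgk1 gave -0.43 (adjusted p = 0.0925), Ldha 0.31 (adjusted p = 0.163) and Slc2a1 0.00 (adjusted p = 0.994), so the size and number of these calls rest on the labels' direction.

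The level of each gene was set across the 4 groups by the rank of its probe within each array, as a percentile of the 45281 probes, because the tissues had been normalized apart. Aldoa ranked highest on GWAT arrays labelled wild type, at 99.5 on all 3, then at no more than 99.1 on those labelled knockout, 92.6 to 93.5 in wild-type liver and 89.9 to 92.4 in knockout liver, with no overlap between neighbours. Pkm ranked at 98.4 to 98.7 and 97.1 to 97.3 in the same order in GWAT, and at 82.4 to 85.2 and 81.7 to 82.9 in liver, where the genotypes overlapped. Pgk1 was ordered the other way, with 96.6 to 97.2 in liver, genotypes overlapping, above 93.3 to 94.0 on GWAT arrays labelled knockout and 91.7 to 92.0 on those labelled wild type. Slc2a4 ranked at 94.5 to 94.7 on GWAT arrays labelled knockout, at 92.3 to 93.4 on those labelled wild type, and near background in liver. Slc2a1 overlapped across all groups, between 85.0 and 87.7, and Ldha stayed between 98.9 and 99.5.

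The rest of the pathway was taken from a list of 63 further genes, of which 55 had 112 probes. In GWAT 71 probes for 44 of the genes were tested, and 7 probes of 4 genes were higher and 5 probes of 5 genes lower on the arrays labelled knockout, with a median log2 difference of -0.03. These 12 of 71 stand beside the 22.5% called among all GWAT probes, so the count does not set the list apart. In liver 53 probes for 34 genes were tested with limma, and 0 were called, while 7 had an unadjusted p under 0.05. In GWAT, among 24 probes of transport, 1 was higher and 1 lower. Among 14 probes of glucose trapping and commitment 4 were higher and 2 lower, among 10 of lower glycolysis 2 were higher, among 10 of lactate and pyruvate handling 1 was lower, and among 13 of regulators 1 was lower.

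The 3 phosphofructokinase genes differed in direction in GWAT. Pfkm, the muscle-type enzyme, was higher on all 3 of its tested probes, with log2 differences of 0.72, 0.57 and 0.49 (limma adjusted p = 0.000733, 0.0334 and 0.00621). The call of the 0.57 probe was lost with no filter and without any of 4 of the 6 arrays (adjusted p up to 0.122). Its most changed probe read 237, 225 and 254 on arrays labelled wild type against 344, 367 and 385.5 on those labelled knockout, without overlap. Pfkl, the liver-type enzyme, read 2156, 2183 and 2273 against 2447, 2512 and 2711, a log2 difference of 0.22 (SE 0.07, limma adjusted p = 0.0437), and gave 0.15 on its dimmer probe (adjusted p = 0.702). Set beside these were the -0.68 and -0.14 of the Pfkp probes. The call of Pfkl was lost when any of 5 of the 6 arrays was left out, with adjusted p-values of up to 0.155.

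Of the genes next to Aldoa and Pgk1 in the route, Tpi1, triosephosphate isomerase, was higher on 2 of its 3 tested probes. The first went from 5280.0, 5617 and 5885 to 6685, 7674 and 7633, a log2 difference of 0.39 (limma adjusted p = 0.0039), another gave 0.28 (adjusted p = 0.0191), and the third did not pass at 0.20 (adjusted p = 0.291). The 0.28 call was lost with no intensity trend (adjusted p = 0.0791) and without the third array labelled knockout or the second labelled wild type (adjusted p up to 0.0766). Gapdh and Pgam1, the steps before and after Pgk1, were not called, at -0.18 (adjusted p = 0.128) and 0.12 (adjusted p = 0.451). Slc2a3, the high-affinity transporter of neurons, read 593, 513 and 551 against 759, 694 and 604, a log2 difference of 0.33 (SE 0.10, limma adjusted p = 0.0429), a call lost without any of 4 arrays (adjusted p up to 0.157). Upstream of phosphofructokinase, Hk3 and 1 of the 2 tested probes of Hk1 were lower. Hk3 read 234, 289 and 263.5 against 186, 179 and 203, a log2 difference of -0.58 (limma adjusted p = 0.00719). A dim probe of Hk1, the broadly expressed hexokinase, gave -0.71 (adjusted p = 0.0054) but was above background on 1 of 3 arrays labelled knockout. The other tested Hk1 probe was brighter, with means of 110.0 and 111.1. It was above background on 3 of 3 arrays of each label and gave 0.02 (adjusted p = 0.958).

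The largest change of the wider list was that of Pdk4, the kinase that inactivates pyruvate dehydrogenase and so keeps pyruvate from the citric acid cycle. It read 1316, 1464 and 1370.0 on the GWAT arrays labelled wild type and 594, 525 and 627 on those labelled knockout. The log2 difference was -1.32 (SE 0.09, limma adjusted p = 5.72e-06), with no overlap. Mlxipl, which encodes the glucose-responsive factor ChREBP, was lower at -0.42 on 1 probe (adjusted p = 0.0325) and gave -0.23 on the other (adjusted p = 0.0635). Stxbp3, which encodes a syntaxin-binding protein of GLUT4 vesicle fusion, was lower at -0.57 (SE 0.16, adjusted p = 0.0241). The Mlxipl and Stxbp3 calls were lost without single arrays, with adjusted p-values of up to 0.138 and 0.0842.

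**Figure D3:**
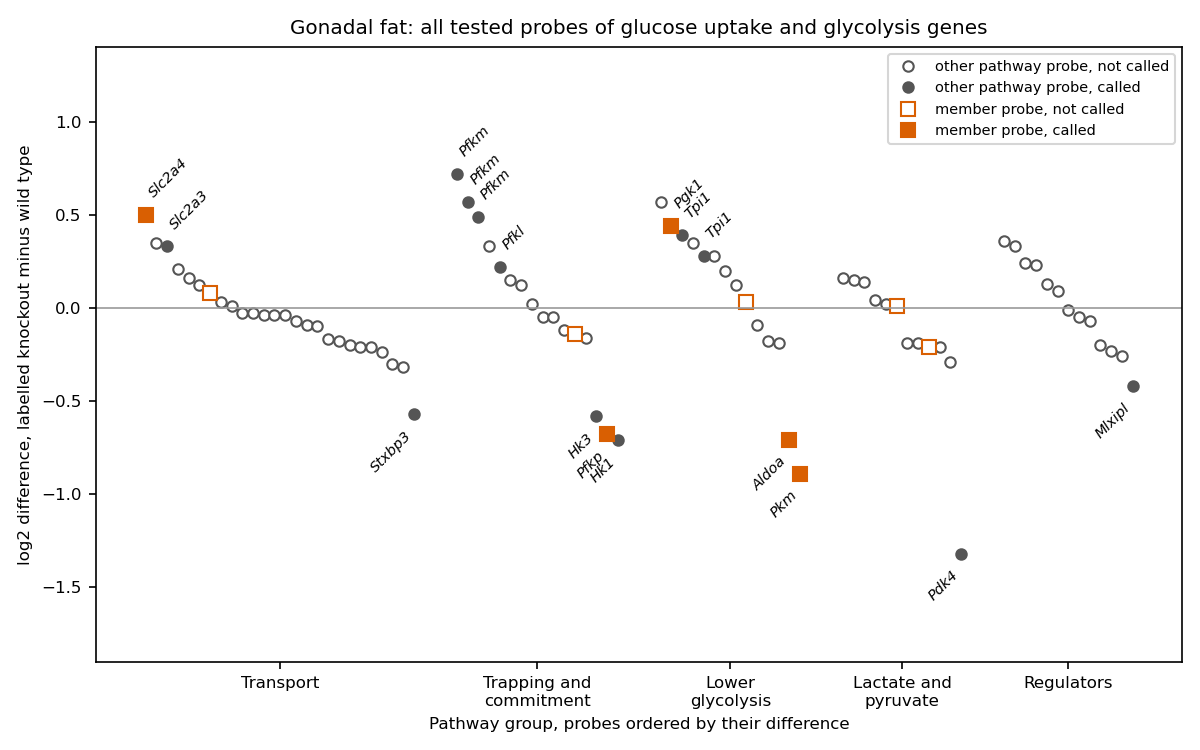
Log2 difference in GWAT, labelled knockout minus wild type, of all tested probes of the pathway in 5 groups ordered along it, with the genes described above as squares and the other pathway genes as circles; filled symbols were called and carry their gene's name. Called probes lie on both sides of 0 in the transport, commitment and lower glycolysis groups, and Pdk4 is the lowest at -1.32.

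Some cell type markers also differed between the GWAT groups. The counts below stand beside 22.5% of all tested GWAT probes called, 11.2% higher and 11.4% lower. Macrophage markers were lower on 9 of 14 tested probes and higher on none, and their summed intensity ran from 22747 to 25786 on arrays labelled wild type and from 15097 to 16440 on those labelled knockout. Lgals3 gave -1.62 on the log2 scale, with means of 8304 and 2806, a large part of the change in these sums. Trem2 gave -1.01, and the brightest Lyz2 probe was not called at -0.21 (limma adjusted p = 0.0617). The part of macrophages in the lower Pkm, Aldoa, Pfkp and Hk3 was not tested. Skeletal muscle markers were higher on 4 of 8 tested probes and lower on none, with sums of 3114 to 3476 and 4501 to 6448. Acta1 gave 1.35 and Tnnc2 2.31. Atp2a1 gave 1.57 without a call (SE 0.60, limma adjusted p = 0.0828), at 72.3, 127 and 339 on the arrays labelled knockout. Of the 12 genes, 3 were below background on every array. Slc2a4 and Pfkm, both abundant in muscle, were higher. Ldha, which predominates there, gave -0.21 without a call, and Aldoa and Pkm were lower. The part of skeletal muscle in any of these was not tested.

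Smooth muscle markers were higher on 4 of 8 probes (sums of 8862 to 10741 and 12185 to 20389), brown adipocyte markers on 2 of 3 (Cox8b 2.23, Cidea 0.78, with Ucp1 above background on 1 array labelled wild type), and duct epithelial markers on 3 of 8. These 3 duct epithelial probes were of only 2 genes, Aqp2 (2.39) and Cldn4 (1.98), and none of the list was lower. The epithelial gene Epcam was below background on every GWAT array. Adipocyte markers had 2 probes higher and 2 lower of 12, and their sums were 97386 to 101718 and 93712 to 97053. Adiponectin (Adipoq) did not pass the test at -0.15 (limma adjusted p = 0.131). The 2 lower probes were those of Retn at -1.08 and Cidec at -0.46, and the 2 higher those of Plin1 at 0.39 and Lep at 0.25. Neutrophil and mast cell markers had 2 probes higher and 7 lower of 10. Among the neutrophil genes S100a8 (1.18) and S100a9 (0.48) were higher and Retnlg (-1.23) was lower. All other lower probes were of the mast cell genes Cma1, Tpsb2, Cpa3 and Mcpt4, of which no probe was called higher. Endothelial markers had 2 lower of 9, each a probe of Pecam1, a count that does not set that list apart. Red blood cell, mesothelial, hepatocyte and B and T cell markers had no called probe and none with an unadjusted p under 0.05. In liver the 1 marker probe called was the brightest of Lyz2, a macrophage lysozyme, at 1.00 (limma adjusted p = 0.0343). The other tested Lyz2 probe gave 0.24 there (limma adjusted p = 0.691). The part of these markers in the results was not tested.

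**Figure D4:**
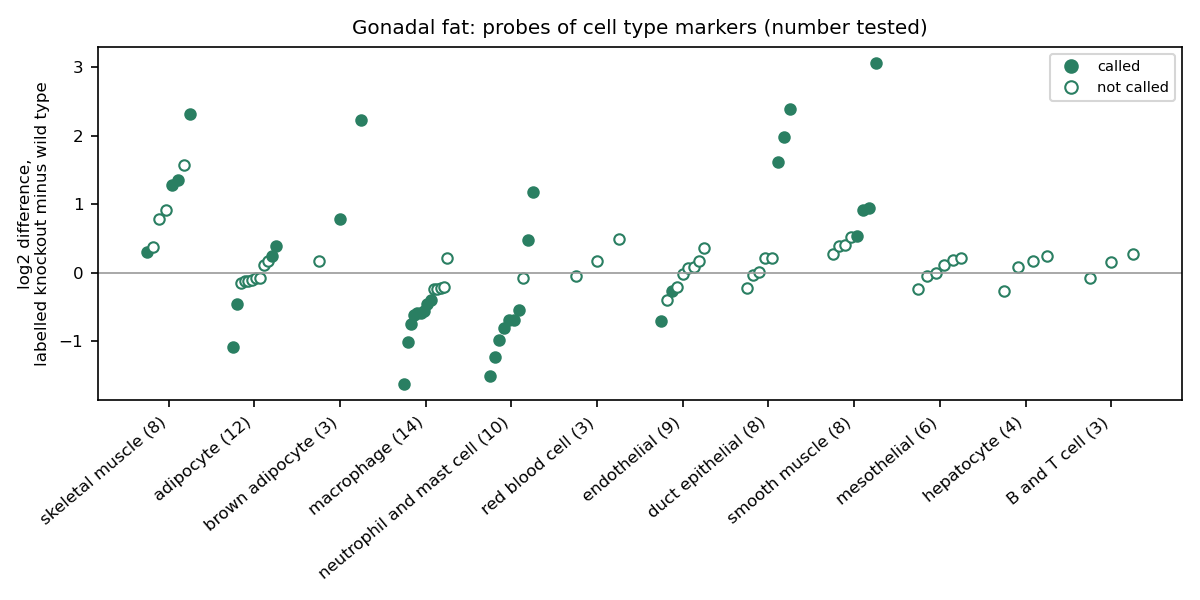
Log2 difference in GWAT, labelled knockout minus wild type, of each tested cell type marker probe by list, with the number tested in parentheses; filled points were called. Called macrophage probes all lie below 0, called skeletal and smooth muscle probes all lie above 0, and adipocyte probes lie on both sides.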

How the data were processed

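The deposited tables hold linear probe intensities, which were found from the values to be quantile-normalized within each tissue (sorted intensities of 2 arrays were within 0.461% of each other in liver and within 1.22% in GWAT) with no background subtracted. Per the labels' protocols, biotinylated cRNA was hybridised to Illumina arrays; the sources used here name no software. The non-normalized tables, whose 48 columns carry chip positions and no sample names, and their detection values were left out. Of the probes, 34885 had 1 gene symbol in the platform annotation, 18 several and 10378 none, and 34807 were matched by Entrez identifier to RefSeq. No genome build is stated for that annotation.

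Background was removed by normexp with 1525 receptor-gene probes as negative controls and an offset of 16 (limma 3.58.1, R 4.3.3), before log2. Each probe was fitted on its own by lmFit and a trended eBayes, with two-sided tests, within each tissue, and over all 12 arrays for the interaction. The interaction fit gave each probe a variance shared by the tissues. Wider-list probes are named where they were called without overlap of the groups, up to 8 in each direction. Of the marker lists only some probes are named, while the counts cover all tested probes. Of the 11 macrophage genes listed 10 had a probe, and Cd68 did not. In simulated data with 100 changed probes of each size, log2 changes of 0.5 and 1 were recovered for 2 and 28 probes in liver, 24 and 79 in GWAT, and 1 and 34 in the interaction. The changed share there was far below the 22.5% called in GWAT and the 6.11% called for the interaction. The Benjamini-Hochberg cut depends on that share, so the GWAT and interaction recoveries do not give the power in these data. The genes, lists and tests were chosen with earlier results of these data known. The alternatives were other background corrections, filters, variance priors, array weights, 1 probe per gene, joint normalization, a replicate block, leaving out each array and, added after the data were seen, exchanged GWAT labels.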

Additional observations from a re-analysis of the deposited data

Results flagged for a closer look

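The genotype difference in GWAT minus that in liver, each labelled knockout minus wild type on the log2 scale, passed the threshold by the limma interaction term for the following probes of the pathway and marker lists and of Cav1. Among the glycolysis genes it was -0.66 for Pkm (SE 0.19, adjusted p = 0.048). Among the other phosphofructokinase genes it was 0.49 for Pfkl (-0.27 in liver, 0.22 in GWAT, adjusted p = 0.0498) and 0.75 and 0.73 for 2 probes of Pfkm (adjusted p = 0.0496 and 0.0487), while the third Pfkm probe gave 0.03 (adjusted p = 0.966). The Pfkm calls were each lost in 11 of the 12 fits that left out 1 array (adjusted p up to 0.128 and 0.133), and the Pfkl call in 9 of 12 (up to 0.138). Among the markers it was -1.49 for Lgals3 (adjusted p = 0.00294), -0.91 for Mrc1 (adjusted p = 0.0177) and -0.70 for C1qb (adjusted p = 0.00881). For 1 probe of Lyz2 it was -1.21 (adjusted p = 0.000239), while another Lyz2 probe gave -0.03 (adjusted p = 0.955). It was 1.52 for S100a8 (adjusted p = 0.00222), 0.91 for S100a9 (adjusted p = 0.0262) and -0.95 for 1 probe of Pecam1 (adjusted p = 0.00454). For 2 probes of Upk3b, a mesothelial gene, it was -1.03 and -1.29 (adjusted p = 0.0196 and 0.00799). For Cav1 it was 9.67 (-1.80 in liver and 7.87 in GWAT). Mrc1 and C1qb were named after their values were seen. The tissues also differed in age, and the GWAT labels disagreed with Cav1. With the GWAT labels exchanged the values were 1.11 for Pkm, 0.05 for Pfkl, -0.22 and -0.71 for Pfkm, 1.75 for Lgals3, 0.26 for Mrc1, 0.23 for C1qb, -0.79 for Lyz2, -0.84 for S100a8, -0.05 for S100a9, -0.44 for Pecam1, -1.03 and -1.20 for Upk3b and -6.06 for Cav1. The calls of Pfkl, the first Pfkm probe, Mrc1, C1qb, S100a8, S100a9 and Pecam1 were lost there (adjusted p from 0.0536 to 0.928). Other probes were called only with the labels exchanged. Among them were the third Pfkm probe at -1.11 (adjusted p = 0.0158) and Aldoa at 1.13 (adjusted p = 0.00241). Sort1 gave 0.83 and 0.61 on 2 probes (adjusted p = 0.0133 and 0.0184), 1 probe of Mlxipl 0.49 (adjusted p = 0.0445) and Retnlg 1.76 (adjusted p = 0.0038).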

How the results depend on the processing

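The 5 called GWAT probes of Slc2a4, Pfkp, Aldoa, Pgk1 and Pkm kept direction and call under the alternatives run on them and without each array. No called value changed sign with the labels as given, but the uncalled Slc2a1, Pgk1 and Ldha in liver, Ldhb and the dimmer Pgk1 probe in GWAT and the Ldha interaction, all near 0, took either sign. Ldha in GWAT passed under array weights, 1 probe per gene, robust eBayes, the stricter filter and the replicate block, at adjusted p-values down to 0.0402. Aldoa and Pgk1 passed for the difference between tissues under array weights and without the third liver knockout array. All-probe counts moved more. In liver, 9 calls became 708 with array weights, 15 with no filter and 0 with no intensity trend, and 0 to 299 without 1 array, moving for each of the 6. In GWAT, 4799 became 2806 to 4357 without 1 array, with 2806 without the second array labelled wild type and 2823 without the second and 3130 without the third labelled knockout. The interaction's 877 became 2734 with array weights, 1515 with no background correction, 563 with no intensity trend, and 397 to 1475 without 1 array. Its count of 1 glycolysis probe, Pkm, became 3 with array weights, 0 with no intensity trend, and 0 to 3 without 1 array. Exchanging the GWAT labels, added after seeing the data, gave 1095 interaction calls over all probes and 2 glycolysis probes (Aldoa 1.13, Pkm 1.11). It turned the 2 Pfkm probes called with the labels as given to -0.22 and -0.71. The third Pfkm probe went from 0.03 to -1.11 and was called there (limma adjusted p = 0.0158). The wider list's 0 calls in liver became 5 with array weights and 0 to 2 without 1 array. Its 7 higher GWAT calls became 4 with no filter, 4 with no intensity trend, 4 with 1 probe per gene, and 3 to 8 without 1 array. Its 5 lower calls became 10 with array weights, 3 with 1 probe per gene, and 3 to 7 without 1 array. The causes were not tested.

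Same-numbered arrays did not pair (correlations of their deviations from -0.0254 to 0.107). With the replicate block, calls were 12 in liver, 4588 in GWAT and 675 for the interaction, whose count of glycolysis probes became 0. Log2 changes near 0.5 in liver were mostly below what 3 arrays per group could detect, and dim probes near background limit Ldhb and the second phosphoglycerate kinase probe.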
